A study of Mus musculus with 24 samples.

Results

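The voltage-gated sodium channel subunits described here are 8 genes, Scn1a, Scn2a1, Scn3a, Scn8a, Scn9a, Scn2b, Scn3b and Scn4b, of the 24341 genes in the tables. Each was taken by its exact name in the gene column, and all 8 were found in every table. RNA-seq was performed on mouse striatum in 4 groups: WT-vehicle with 5 libraries, R6/1-vehicle with 6, WT-RGFP109 with 6 and R6/1-RGFP109 with 7. R6/1 mice are hemizygous for a transgene that carries exon 1 of the human huntingtin gene with an expanded CAG repeat, and the WT mice are littermates without it on the same C57BL/6J background. RGFP109 inhibits the histone deacetylases HDAC1 and HDAC3 and was injected intraperitoneally at 30 mg/kg, 5 times per week over 23 days, from an age of 11 to 14 weeks. Vehicle mice received the solvent alone on the same schedule. All mice were killed 18 h after the last injection, at 14 to 17 weeks of age.

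Sodium channels open on depolarization and carry the rising phase of the action potential. An alpha subunit forms the pore and can conduct without help, whereas beta subunits are small membrane proteins with an immunoglobulin-like domain that tune gating, surface levels and adhesion. In the striatum most neurons are GABAergic projection neurons, and Scn4b is known for its high expression there.

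Every value below is FPKM (fragments per kilobase of exon, scaled to the mapped fragments of a library), which accounts for transcript length, so that levels can be set side by side between genes. The tables hold 1 pooled value per group, and values per library were not used here, so no replicate error and no test is given, and no difference is set against the spread between mice. A ratio is given as the log2 ratio of (FPKM + 0.05), and an absolute log2 ratio above 0.5 is called past the fold. Both genotype comparisons, with vehicle and with RGFP109, used different mice in both arms, so each gives a separate reading of the R6/1 difference.

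The 5 alpha subunit genes are close relatives, which matters for reads of 51 bases. Over the longest coding transcript of each gene (GENCODE M21, mm10), 8.36% of the 51-base windows of Scn3a, 7.41% of those of Scn2a1, 5.34% of those of Scn1a and 5.28% of those of Scn9a were identical to a window of another member. The share was 0.0439% for Scn8a and 0% for the 3 beta subunit genes. Reads from the shared windows could have been divided among the alpha genes in the authors' quantification, so small differences among Scn1a, Scn2a1, Scn3a and Scn9a are uncertain to that extent.

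For Scn4b the segment shown encodes the cytoplasmic stretch known to block the open channel, in capitals, 5′ to 3′ across the junction of exons 4 and 5 of 5 on the plus strand (chr9:45149343-45150417, mm10, with the intron left out).
Scn4b: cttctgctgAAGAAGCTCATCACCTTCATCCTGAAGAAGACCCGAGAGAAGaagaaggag
No window of Scn4b occurred in a transcript of another gene, and no other gene of the tables shared its locus.

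Scn4b, the beta subunit gene associated with resurgent sodium current, stood far apart from the other members. Its level was 327 FPKM in WT-vehicle and 40.8 FPKM in R6/1-vehicle, which is 8.0 times lower in R6/1 (log2 ratio -3.00). In the mice given RGFP109 it was 289 FPKM in WT and 35.4 FPKM in R6/1, which is 8.17 times lower (log2 ratio -3.03). Both WT values were therefore high and both R6/1 values low, and the 2 readings of the ratio were close.

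Counted from the lowest ratio with vehicle, Scn4b was rank 86 of all 16972 genes and rank 56 of the 7911 genes with at least 10 FPKM in a compared group. Among the 7440 of these that code for proteins it was rank 2. Of those only Avp, which encodes the hypothalamic peptide vasopressin, was lower, at 0.983 FPKM in R6/1-vehicle and 11.1 FPKM in WT-vehicle (log2 ratio -3.43). With RGFP109 Scn4b was rank 103 of all 16954 genes, rank 64 of 7897 with at least 10 FPKM and rank 3 of the 7417 coding genes among them, after S100a5 (log2 ratio -6.84) and Ttr, the transthyretin gene of the choroid plexus (log2 ratio -3.32). Within the whole transcriptome Scn4b was the 144th highest of 16636 genes in WT-vehicle and the 2225th of 16527 in R6/1-vehicle. With RGFP109 it was the 175th of 16638 in WT and the 2604th of 16528 in R6/1.

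Scn9a, an alpha subunit gene best known from peripheral sensory neurons, was the only member past the fold in the other direction. Its level was 0.835 FPKM in WT-vehicle and 2.35 FPKM in R6/1-vehicle, 2.82 times higher in R6/1 (log2 ratio 1.44). With RGFP109 it was 0.950 FPKM in WT and 2.5 FPKM in R6/1, 2.63 times higher (log2 ratio 1.35). Scn9a was the lowest of the 8 members in every group, and both R6/1 values lay above both WT values. An absolute ratio larger than that of Scn9a was found in 3.08% of all genes with vehicle and in 3.23% with RGFP109.

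The locus given for Scn9a is shared with Gm13629, an antisense transcript that overlaps 180 of its 12772 exonic bases. The paper names a TruSeq RNA kit for the libraries and does not say whether it marks strand. Gm13629 was at 1.58 FPKM in WT-vehicle and 1.90 FPKM in R6/1-vehicle (log2 ratio 0.26). With RGFP109 it was at 2.21 FPKM in WT and 1.79 FPKM in R6/1 (log2 ratio -0.30). The part of reads from this overlap in the Scn9a values was not tested.

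**Figure D1:**
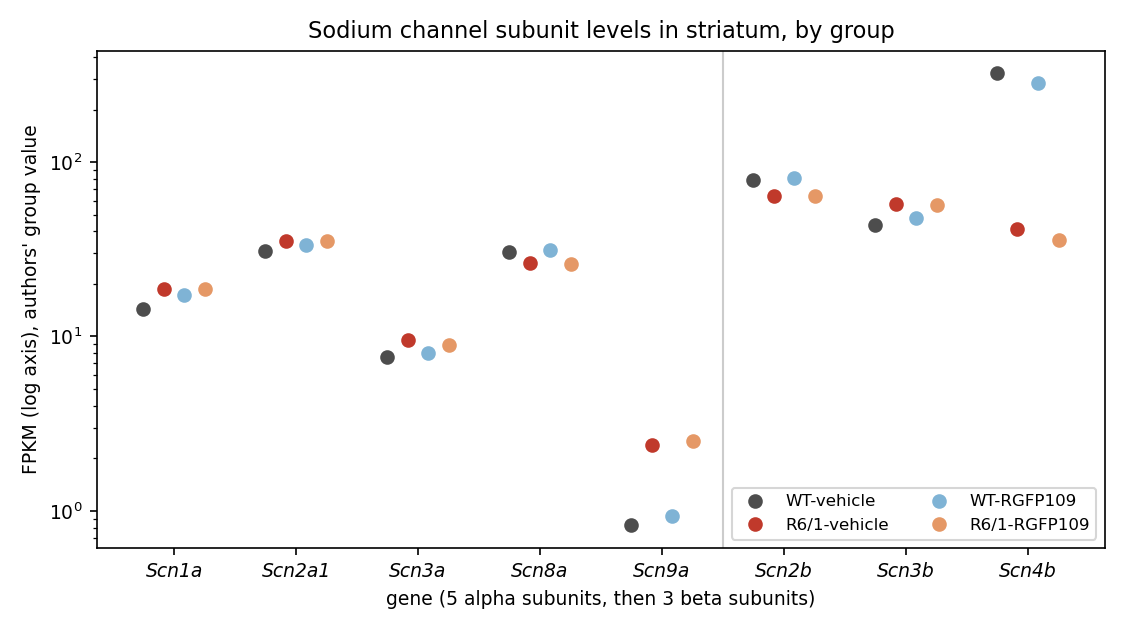
Level of each subunit gene (FPKM, log axis) in the 4 groups, as the geometric mean of the authors' pooled group values over the 3 tables that hold each group. Scn4b lay at 323 and 285 FPKM in the WT groups and at 41.3 and 35.7 FPKM in the R6/1 groups, and Scn9a was the lowest gene throughout.

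The other 6 members stayed within the fold in both genotype comparisons. Counted over the 8 members, 1 was past the fold upward with vehicle, beside 5.84% of all 16972 genes passing the filter on low values, and 1 downward, beside 13.4%. With RGFP109 the counts were again 1 upward, beside 5.39% of 16954 genes, and 1 downward, beside 11.7%. All 8 members passed that filter, FPKM above 0.1 in a compared group, in every comparison. The median log2 ratio of the members was 0.22 with vehicle and 0.07 with RGFP109, and that of all genes was -0.02 and 0.000131. As counts, then, the members lay near the background in both directions, and what stood out was the size of the Scn4b ratio.

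Among the remaining alpha subunit genes, Scn1a, which is prominent in fast-spiking interneurons, was at 14.6 FPKM in WT-vehicle and 18.4 FPKM in R6/1-vehicle (log2 ratio 0.34). Under RGFP109 its values were 17.5 FPKM in WT and 18.6 FPKM in R6/1 (log2 ratio 0.09). The WT-vehicle group was the lowest of the 4, and the other 3 groups were close together.

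Scn2a1, listed as Scn2a in RefSeq, encodes a channel of axons and was the highest of the alpha genes in all 4 groups. It was at 31.3 FPKM in WT-vehicle and 34.8 FPKM in R6/1-vehicle (log2 ratio 0.15), and at 33.7 and 34.8 FPKM in WT-RGFP109 and R6/1-RGFP109 (log2 ratio 0.05). Scn3a, whose expression is high in the embryonic brain, was at 7.66 FPKM in WT-vehicle and 9.39 FPKM in R6/1-vehicle (log2 ratio 0.29). With RGFP109 the Scn3a values were 8.10 FPKM in WT and 8.89 FPKM in R6/1 (log2 ratio 0.13). Both genes were slightly higher in R6/1 in both readings.

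Scn8a, the main alpha subunit of mature axon initial segments and nodes of Ranvier, was the only alpha gene with lower values in R6/1. It was at 30.7 FPKM in WT-vehicle and 26.0 FPKM in R6/1-vehicle (log2 ratio -0.24). Its values with RGFP109 were 31.7 FPKM in WT and 25.9 FPKM in R6/1 (log2 ratio -0.29). The WT groups lay above the R6/1 groups in both cases, by less than the fold.

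The other beta subunit genes differed in opposite directions. Scn2b, whose product is bound to the alpha subunit by a disulfide bond as is that of Scn4b, was at 79.7 FPKM in WT-vehicle and 63.0 FPKM in R6/1-vehicle (log2 ratio -0.34). With RGFP109 it was at 82.0 FPKM in WT and 63.2 FPKM in R6/1 (log2 ratio -0.38). Scn2b and Scn4b are neighbours on chromosome 9, on the same strand and 8324 bases apart, yet the ratio of Scn2b was far smaller than that of Scn4b.

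Scn3b, whose product binds the alpha subunit without a disulfide bond, was at 44.1 FPKM in WT-vehicle and 57.0 FPKM in R6/1-vehicle (log2 ratio 0.37). Under RGFP109 the values were 48.7 FPKM in WT and 56.3 FPKM in R6/1 (log2 ratio 0.21). Its R6/1 values lay above its WT values in both readings.

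The sign of the genotype ratio was the same with vehicle and with RGFP109 for 8 of 8 members, beside 80.4% of 16662 genes measured in both. The ratio with RGFP109 minus the ratio with vehicle was between -0.25 for Scn1a and -0.03 for Scn4b. It was negative for 8 of 8 members, beside 47.6% of all genes and 45.4% of the 7957 genes with at least 10 FPKM. Its median absolute value was 0.10, beside 0.10 for all genes and 0.07 for those with at least 10 FPKM, to which 6 of the members belong. For Scn1a, Scn2a1, Scn3a, Scn9a and Scn3b this means a smaller excess in R6/1 with RGFP109, and for Scn8a, Scn2b and Scn4b a slightly larger deficit. In that order, the former had log2 ratios of RGFP109 against vehicle of 0.26, 0.10, 0.07, 0.17 and 0.14 in WT. In R6/1 they were 0.01, -0.01, -0.09, 0.08 and -0.03. The smaller excess thus went with higher WT values for each, and with a lower R6/1 value of similar size only for Scn3a. The difference between the genotype ratios was not tested for any member.

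**Figure D2:**
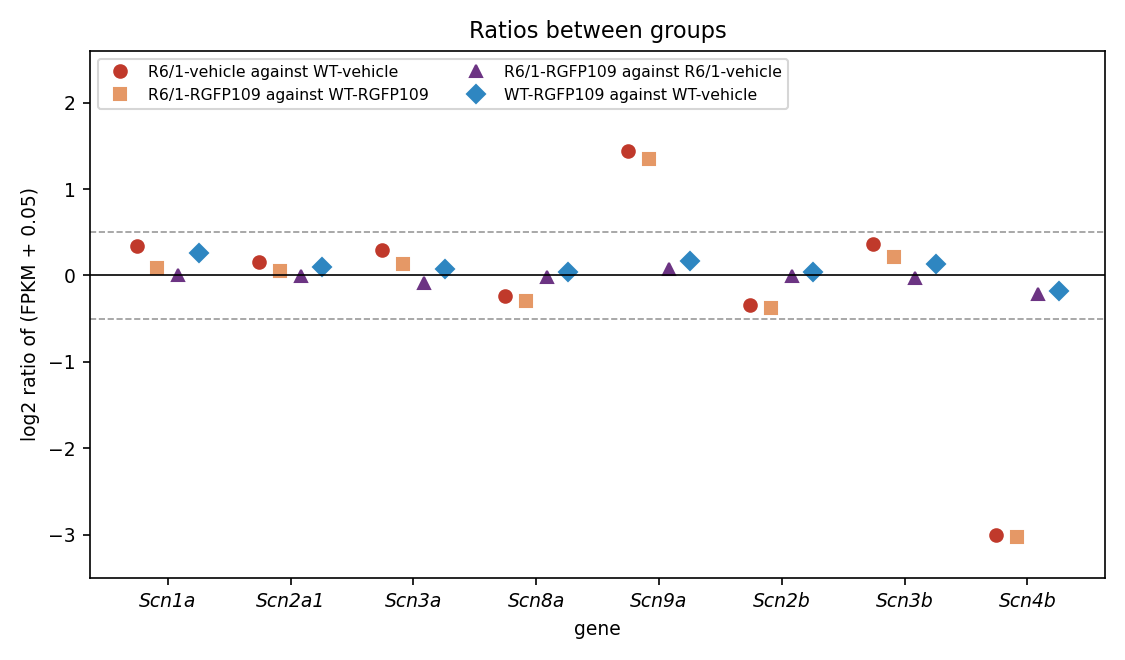
Log2 ratio of (FPKM + 0.05) of each subunit gene in the 4 comparisons, with dashed lines at the fold of 0.5. Scn4b at -3.00 and -3.03 and Scn9a at 1.44 and 1.35 were past the fold in the genotype comparisons, and no point of the RGFP109 comparisons was.

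With RGFP109 every ratio of a member stayed within the fold. In R6/1 mice 0 of the 8 members were past the fold upward, beside 2.62% of 16840 genes, and 0 downward, beside 3.14%. In WT mice 0 were past it upward, beside 3.19% of 16957 genes, and 0 downward, beside 4.92%. The median log2 ratio of the members was -0.01 in R6/1 and 0.09 in WT, and that of all genes was 0.0012 and -0.0063.

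Scn4b had the lowest ratio of the members in both treatment comparisons. It was at 36.4 FPKM in R6/1-RGFP109 and 42.2 FPKM in R6/1-vehicle (log2 ratio -0.21), and 16.5% of 16840 genes had a larger absolute ratio. Among the 7326 coding genes with at least 10 FPKM, Scn4b was rank 37 from the lowest, and 1.13% had a larger absolute ratio. In WT it was at 278 FPKM with RGFP109 and 315 FPKM with vehicle (log2 ratio -0.18), and 26.3% of 16957 genes had a larger one. Among the 7156 coding genes with at least 10 FPKM there, Scn4b was rank 321 from the lowest, and 6.40% had a larger one. The treated value was thus the lower one in either genotype. The 10 markers of striatal projection neurons were also all lower with RGFP109 in R6/1, with log2 ratios from -0.25 to -0.12 and a median of -0.15. In WT their ratios lay between -0.17 and 0.20 with a median of -0.08, and 0 of the 10 were past the fold in either genotype. Their part in the Scn4b ratio was not tested. Set against WT-vehicle, R6/1-RGFP109 mice had 35.3 FPKM of Scn4b where WT-vehicle had 327 (log2 ratio -3.21), a distance from WT-vehicle no smaller than that of R6/1-vehicle.

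Scn1a had the highest ratio of the members in WT, with 16.9 FPKM with RGFP109 and 14.1 FPKM with vehicle (log2 ratio 0.26), and 18.0% of 16957 genes had a larger absolute ratio. Among the 7156 coding genes with at least 10 FPKM, Scn1a was rank 50 from the highest, and 2.63% had a larger absolute ratio. In R6/1 its values were 19.2 and 19.1 FPKM (log2 ratio 0.01). Scn9a was at 2.57 FPKM in R6/1-RGFP109 and 2.43 FPKM in R6/1-vehicle (log2 ratio 0.08), and at 0.914 and 0.806 FPKM in WT (log2 ratio 0.17). For the other 5 members the ratio lay between -0.09 and -0.0032 in R6/1 and between 0.04 and 0.14 in WT. The sign was the same in both genotypes for 3 of 8 members, beside 50.5% of 16534 genes, although for Scn2b the sign in R6/1 rests on a ratio of -0.0032 that turned to 0.000167 when each group was averaged over its tables.

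The order of the levels also differed between genotypes. In both WT groups it ran from Scn4b through Scn2b, Scn3b, Scn2a1, Scn8a, Scn1a and Scn3a to Scn9a. In both R6/1 groups Scn2b came first, then Scn3b and Scn4b, and the rest kept their places. Scn4b and Scn2a1 were close to each other in R6/1-RGFP109, at 35.7 and 35.1 FPKM averaged over tables, as were Scn2a1 and Scn8a in WT-vehicle, at 31.0 and 30.4 FPKM. Whether such neighbours differ beyond the spread between mice was not tested.

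Summed over the 5 alpha genes, the level was 85.2 FPKM in WT-vehicle and 91.1 FPKM in R6/1-vehicle (log2 ratio 0.10), and 92.0 and 90.7 FPKM with RGFP109 (log2 ratio -0.02). Within that sum Scn8a held 36.1% in WT-vehicle and 28.6% in R6/1-vehicle. Scn1a held 17.2% and 20.2%, and Scn9a 0.981% and 2.58%. The alpha total therefore differed little while its makeup shifted from Scn8a toward the other genes.

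The 3 beta genes summed to 450 FPKM in WT-vehicle and 161 FPKM in R6/1-vehicle (log2 ratio -1.49). Scn4b held 72.5% of this sum in WT-vehicle and 25.4% in R6/1-vehicle. Without Scn4b the sums were 124 and 120 FPKM (log2 ratio -0.04), so nearly the whole difference in the beta sum lay in that gene. With RGFP109 the 3 beta genes summed to 420 FPKM in WT and 155 FPKM in R6/1 (log2 ratio -1.44). The ratio of the beta sum to the alpha sum was 5.29 in WT-vehicle and 1.77 in R6/1-vehicle, and 4.56 and 1.71 with RGFP109.

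**Figure D3:**
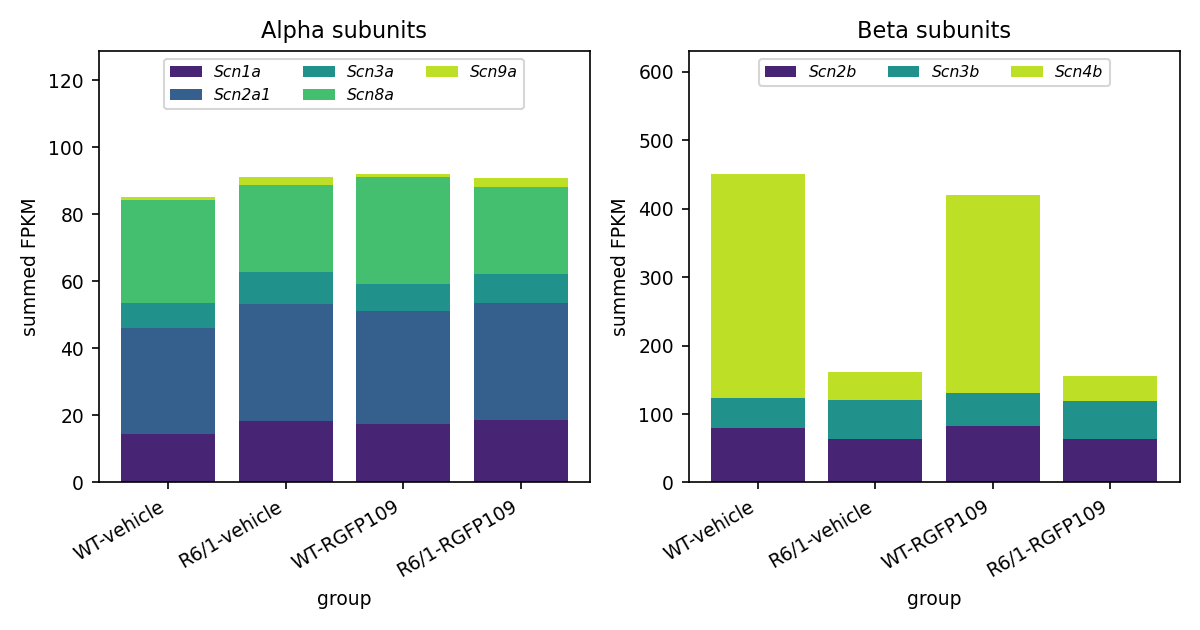
Summed FPKM of the 5 alpha genes (left) and of the 3 beta genes (right) in each group, from the 2 genotype tables. The alpha bars lie between 85.2 and 92.0 FPKM, and the beta bars reach 450 and 420 FPKM in WT and 161 and 155 FPKM in R6/1, with Scn4b as most of the gap.

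Of the 7 other sodium channel genes, 6 passed the filter with vehicle, and 2 were past the fold upward and 1 downward. Nalcn, which encodes the sodium leak channel, was at 16.9 FPKM in WT-vehicle and 25.2 FPKM in R6/1-vehicle (log2 ratio 0.58), and at 18.7 and 24.1 FPKM with RGFP109 (log2 ratio 0.36). Scn7a (log2 ratio 0.67) and Scn10a (log2 ratio -0.70) were under 1 FPKM in all 4 groups.

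The partners of the channels, 17 genes for fibroblast growth factor homologous factors, ankyrins, adhesion proteins, the processing enzymes of the beta subunits and the repressor Rest, showed 0 genes past the fold in each of the 4 comparisons. Among them with vehicle were Fgf11, a gene for one of these growth factor homologues (log2 ratio -0.34), and Rest (log2 ratio 0.33), and the list median was -0.01.

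Markers of the cells in the tissue moved with genotype as well. Of 10 genes marking striatal projection neurons, 8 were past the fold downward with vehicle and 8 with RGFP109, and their summed level was 3364 FPKM in WT-vehicle and 1304 FPKM in R6/1-vehicle. With RGFP109 that sum was 3243 FPKM in WT and 1174 FPKM in R6/1. The defining markers of the labelled tissue were thus present in all 4 groups. Scn4b, at -3.00, lay below all 10 of these markers, of which the lowest was Penk, the proenkephalin gene, at -2.01 with vehicle and -2.17 with RGFP109. Adora2a, the adenosine receptor gene of indirect-pathway neurons, was at -1.97 with vehicle, and Rgs9 at -1.54. Tac1, the substance P precursor gene of direct-pathway neurons, was at -0.11 and -0.43. In bulk tissue fewer cells of a type and less RNA per cell cannot be told apart.

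Of 6 striatal interneuron markers, 5 were past the fold downward in each genotype comparison, with sums of 964 FPKM in WT-vehicle and 512 FPKM in R6/1-vehicle and the lowest ratio for Chat, the acetylcholine synthesis gene (log2 ratio -1.47 with vehicle). Of 7 markers of neurons in general, 0 were past the fold in either, with sums of 2240 and 1957 FPKM with vehicle (log2 ratio of the sums -0.19). The alpha sum (log2 ratio 0.10) therefore lay nearer to the general neuron markers than to those of striatal neuron types. Of 9 neocortical markers, 7 were past the fold downward with vehicle and 0 with RGFP109, and 3 were past it upward with RGFP109 in R6/1, while the largest absolute ratio of a member in that comparison was that of Scn4b, at -0.21. Of 6 choroid plexus markers, 5 were past the fold downward in each genotype comparison and 6 with RGFP109 in either genotype. Of 6 hypothalamic markers, 4 were past the fold downward with vehicle, and with RGFP109 2 were past it upward and 1 downward. Of 6 oligodendrocyte markers, 4 were past the fold downward with vehicle and 0 with RGFP109, and of 6 astrocyte markers 1 and 2 were. The 6 microglial and 3 oligodendrocyte precursor markers had 0 past the fold in both genotype comparisons, and of 5 endothelial markers 1 was past it downward in each. Of 4 thalamic markers, 1 was past the fold upward and 1 downward with vehicle, and 1 downward with RGFP109. The part of these tissue differences in the subunit values was not tested.

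**Figure D4:**
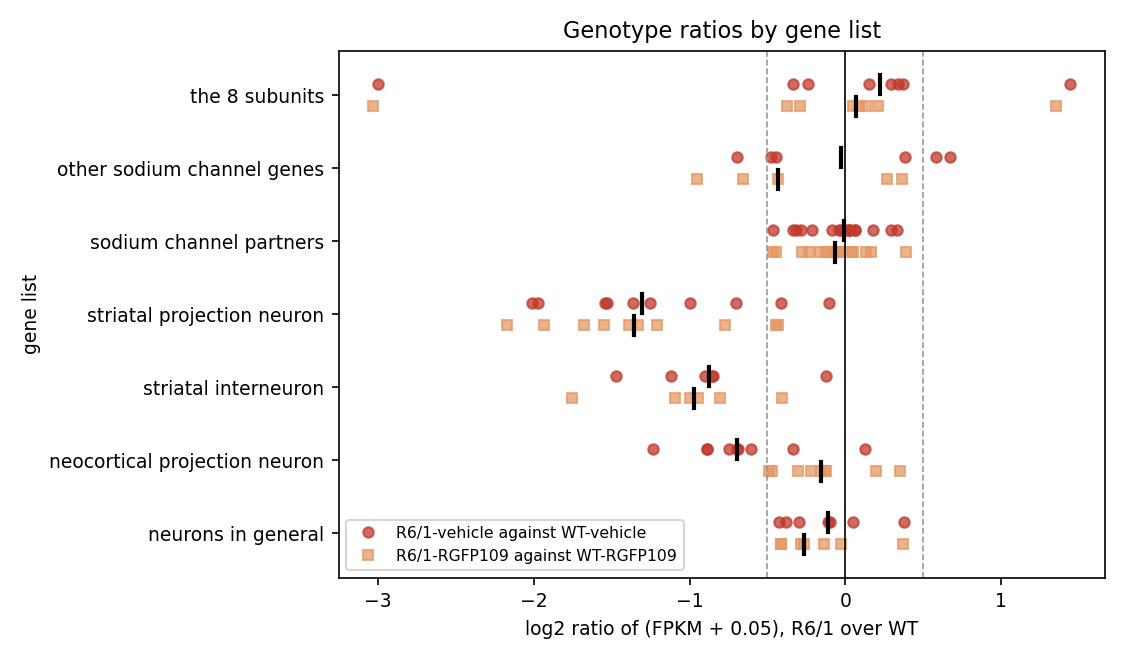
Log2 ratio of (FPKM + 0.05), R6/1 over WT, of each gene passing the filter in 7 lists, with the list median as a black bar and dashed lines at the fold of 0.5. Scn4b at -3.00 and -3.03 lies left of every other gene shown, and the markers of striatal projection neurons have medians of -1.31 and -1.36.

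The genes whose 4 group values were most like those of Scn4b, by Euclidean distance of the centred log2 values among 14103 genes, were Ptpn7 (0.164), Tmprss6 (0.293), Ptprv (0.300), Sec14l3 (0.324) and Gm7244 (0.359). All 5 were far lower in level than Scn4b, from 1.35 FPKM for Sec14l3 to 8.30 FPKM for Ptprv in WT-vehicle. For Scn9a the 5 most alike were Irf7 (0.0675), Slitrk6 (0.0778), AW551984 (0.0801), Tpx2 (0.182) and Mir485 (0.190). Their log2 ratios with vehicle were between 1.35 and 1.47, near that of Scn9a, which follows from how they were chosen. The likeness rests on 4 values per gene.

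The mouse Htt gene was at 16.9 FPKM in WT-vehicle and 19.1 FPKM in R6/1-vehicle (log2 ratio 0.17). Its row is not that of the human transgene, so it does not check the genotype labels.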

How the data were processed

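Striatal RNA of male R6/1 and WT mice was sequenced by the authors as single-end reads of 51 bases, in 24 libraries. These were made with a TruSeq RNA kit, and whether it marks strand is not said in the paper. The authors aligned the reads to mm10 RefSeq transcripts with STAR 2.5.0b and estimated FPKM with Cufflinks 2.2.1. The 6 deposited Cuffdiff tables, 1 for each pair of groups, hold 1 pooled FPKM value per group, and these deposited FPKM values were used. Their columns of fold change, test statistic, p, q and significance are the authors' own comparisons and were not used. Values of a group differ between the 3 tables that hold it by a common factor (median ratios 0.962 to 1.04), so each ratio was taken within 1 table. Read counts and depth per library are unknown, and no interval is given.

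Log2 ratios of (FPKM + 0.05) were computed with Python 3.11.15 (pandas 2.3.3, numpy 2.4.6) for genes with FPKM above 0.1 in at least 1 of the 2 groups. The pseudocount and the minimum are those the study used in its gene set analysis, and the fold of 0.5 is the one it used for calling genes, there together with a false discovery rate that is not applied here. With 1 pooled value per group no test was made, and values per library that the study lists for some genes were not used. The scripts were tested on simulated data. Coordinates are mm10, counted from 1. The sequence shown and the windows of 51 bases come from GENCODE M21 transcripts. The members and gene lists were chosen with earlier results of these data known. The markers include genes that were picked by the study on these samples and are not independent evidence, Neurod2, Neurod6, Kl, Folr1, Otx2 and Avp among them. Results of some list genes and sequences are not reported here. Named were all members, channel and partner genes with the largest ratios and marker genes on which a statement turns (other markers are given by counts), and the 5 genes most alike to Scn4b and Scn9a among those with at least 1 FPKM in some group. Genes ranked below Scn4b, Gm13629 and Htt were chosen after their values were seen.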

Additional observations from a re-analysis of the deposited data

How the results depend on the processing

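The number of subunit genes past the fold was 2, 2, 0 and 0 in the genotype comparisons with vehicle and with RGFP109 and the RGFP109 comparisons in R6/1 and in WT. These 4 counts were the same with a pseudocount of 1 FPKM, no pseudocount, a minimum of 1 FPKM, no filter, a fold of 1, centring on the median gene and averaging each group over its 3 tables. With a fold of 0.25 they became 6 (4 upward, 2 downward), 4 (1 upward, 3 downward), 0 and 1 (Scn1a upward), by the construction of a smaller threshold. A pseudocount of 1 FPKM lowered the log2 ratio of Scn9a from 1.44 to 0.87 with vehicle and from 1.35 to 0.84 with RGFP109, and 36 of the 40 single values compared under it moved by less than 0.05. Averaging each group over its tables turned 1 sign, that of Scn2b with RGFP109 in R6/1, from -0.0032 to 0.000167. The shares of all genes past the fold were smaller under that pseudocount, at 2.25% upward and 7.01% downward for the genotype comparison with vehicle.

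No paired analysis was possible because the columns are pooled group values that carry no replicate numbers. Leaving out single libraries was not run, since values per library were not used here. Depth is unknown, so how precisely the low values of Scn9a are measured was not determined.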
